A study of Mus musculus with 8 samples.

Results

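Among the 18123 genes tested in the mouse corpus callosum, 238 (1.31%) had levels that were higher in every library labelled WT than in every library labelled TRPA1-KO, sham operated mice included. The symbols described here, 6 of these, were *Hjurp* with *A730008H23Rik* and *6430706D22Rik*, both synonyms of *Hjurp* in RefSeq, the neighbouring genes *Ehd1* and *Cdc42bpg*, and the pseudogene *Pisd-ps3*. Each was chosen for this separation in these same data, so their label difference is described below and not tested. *Pisd*, the protein-coding gene that *Pisd-ps3* copies, was added for comparison. These 7 symbols are a part of 25239 in the deposited table, and all 7 passed the limit on low values.

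The libraries came from the corpus callosum, the white matter tract between the cerebral hemispheres, of male mice of the labelled strain C57BL/6 aged 8 to 12 weeks, either wild type (labelled WT) or Trpa1 -/- (labelled TRPA1-KO, a line with a targeted gene of the cation channel TRPA1). Mice underwent bilateral common carotid artery stenosis (BCAS), in which a microcoil around each artery lowers blood flow to the brain, or a sham operation without coils. Each label was represented by 4 libraries, namely sham (day 14), BCAS day 7, BCAS day 10, and BCAS day 14, and values below are listed in that order. Both labels are given the same strain, and the TRPA1-KO line was purchased as an established line and then crossed back to C57BL/6J, while the WT mice came from another supplier.

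The libraries held between 7896071 and 12952093 reads on genes. Values are the deposited CPM, read counts scaled to effective library size. The targeted gene went against the labels. *Trpa1* (chr1:14872648-14918862, minus strand, GRCm38) had 1, 0, 0, and 0 reads under the WT label, but 10, 11, 3, and 7 reads under the TRPA1-KO label. Directions here are therefore between labels only. Summed myelin and oligodendrocyte markers lay between 12077 and 16194 CPM, so the labelled tissue was represented, and cortical neuron markers (1299 to 1722 CPM) and striatal neuron markers (314 to 758 CPM) were present too. In such bulk samples, fewer cells of a type and less RNA per cell cannot be told apart.

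These genes act in unrelated processes. HJURP is the chaperone that deposits the histone variant CENP-A at centromeres after cell division, and so marks where the kinetochore will form. EHD1 is an ATPase that shapes recycling endosomes and returns receptors to the cell surface, while CDC42BPG is a member of the MRCK kinases, which act below the small GTPase CDC42 on actin and myosin. PISD is the mitochondrial enzyme that decarboxylates phosphatidylserine to phosphatidylethanolamine, a main phospholipid of mitochondrial membranes and of myelin.

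*Hjurp* lies at chr1:88262471-88277633 on the minus strand in GENCODE M21 (GRCm38), and its first exon starts close to that of *Trpm8*, a cold-sensing TRP channel on the plus strand that begins at 88277661. The bases between both annotated starts are shown because they are the only stretch that separates *Hjurp* from its nearest upstream gene. They were read from the RefSeq promoter table of GRCm38.p6 on the minus strand.
*Hjurp* to *Trpm8* interval, chr1:88277634-88277660: ggcggaccctccctctcgtccctcccc
The interval has 27 bases. In RefSeq, *Hjurp* runs from 88258856 to 88277644, so it reaches into this interval and, at its 3′ end, into *Mroh2a* on the other strand, whose reads could not be told apart if the counting did not use strand. *Trpm8* itself had at most 2 reads in any library and was below the limit for testing.

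*Pisd* (chr5:32736301-32785646, minus strand) has several copies in the mouse genome, and the coding stretches below are shown because short reads from them may not be placed on 1 copy. They come from GENCODE M21 transcripts, 5′ to 3′, and cover coding bases 374 to 493 of *Pisd* against *Pisd-ps1*, and 340 to 459 against *Pisd-ps2*. Capitals mark the only base that differs.
*Pisd*, coding bases 374 to 493: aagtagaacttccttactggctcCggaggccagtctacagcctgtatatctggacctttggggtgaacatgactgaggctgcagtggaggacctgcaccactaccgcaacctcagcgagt
*Pisd-ps1*: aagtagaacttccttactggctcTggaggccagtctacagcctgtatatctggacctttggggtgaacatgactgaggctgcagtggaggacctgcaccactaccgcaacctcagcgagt
*Pisd* and *Pisd-ps2*, coding bases 340 to 459 of *Pisd*: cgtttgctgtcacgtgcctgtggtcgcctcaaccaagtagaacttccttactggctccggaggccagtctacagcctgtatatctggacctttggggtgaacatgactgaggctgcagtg
In these windows of 120 bases, *Pisd* and *Pisd-ps1* differed in 1 base and *Pisd* and *Pisd-ps2* in 0. Over the whole of its annotated transcripts, 15.9% of the 100-base stretches of *Pisd* also occurred in another gene (*Pisd-ps2* and the overlapping gene models *Gm20671* and *Gm43695*), and 19.1% of the 50-base stretches did. The shares were 0% for *Hjurp*, *Ehd1*, and *Cdc42bpg* at 100 bases. At 50 bases, *Hjurp* had 0.425%, and *Ehd1* and *Cdc42bpg* had 0%. The read length is not given in the sources used here, so both lengths were taken.

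*Hjurp* was measured by 244 to 1163 reads per library and was higher under the WT label. The WT label showed 87.8, 103, 88.8, and 80.8 CPM, and the TRPA1-KO label showed 30.2, 27.2, 26.1, and 50.9 CPM. The day 14 BCAS library labelled TRPA1-KO was high for its label, but it still lay below every library labelled WT. The means were 90.2 ± 9.52 CPM (SD, n = 4) and 33.6 ± 11.7 CPM (SD, n = 4), a ratio of 2.69. On the log2(CPM + 1) scale, which understates changes of low values, the label difference was 1.45 (SE 0.18), and it was 1.67 without the day 14 BCAS library labelled TRPA1-KO.

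The RefSeq synonyms *6430706D22Rik* and *A730008H23Rik* had no entry of their own in GENCODE M21, and 3 of the 6 symbols that RefSeq gives for *Hjurp* were rows of the table. *6430706D22Rik* had 74.6, 87.4, 76.6, and 66.4 CPM under the WT label, and 23.02, 19.3, 20.0, and 42.2 CPM under the TRPA1-KO label. As for *Hjurp*, day 14 was the highest library of its label and the labels did not overlap.

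*A730008H23Rik* had 52.3, 65.4, 55.2, and 48.4 CPM under the WT label, and 14.8, 12.9, 12.9, and 30.7 CPM under the TRPA1-KO label. Its labels stood apart as well, and its means had a ratio of 3.10, beside 2.92 for *6430706D22Rik*. Across the 8 libraries, Pearson's r of log2(CPM + 1) was 0.999 between these symbols and *Hjurp* and between each other. These points share the label difference by which the rows were chosen, and *Ehd1*, on another chromosome, had an r of 0.94 with *Hjurp*. That the rows belong to 1 locus rests on the RefSeq synonyms and not on r.

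**Figure D1:**
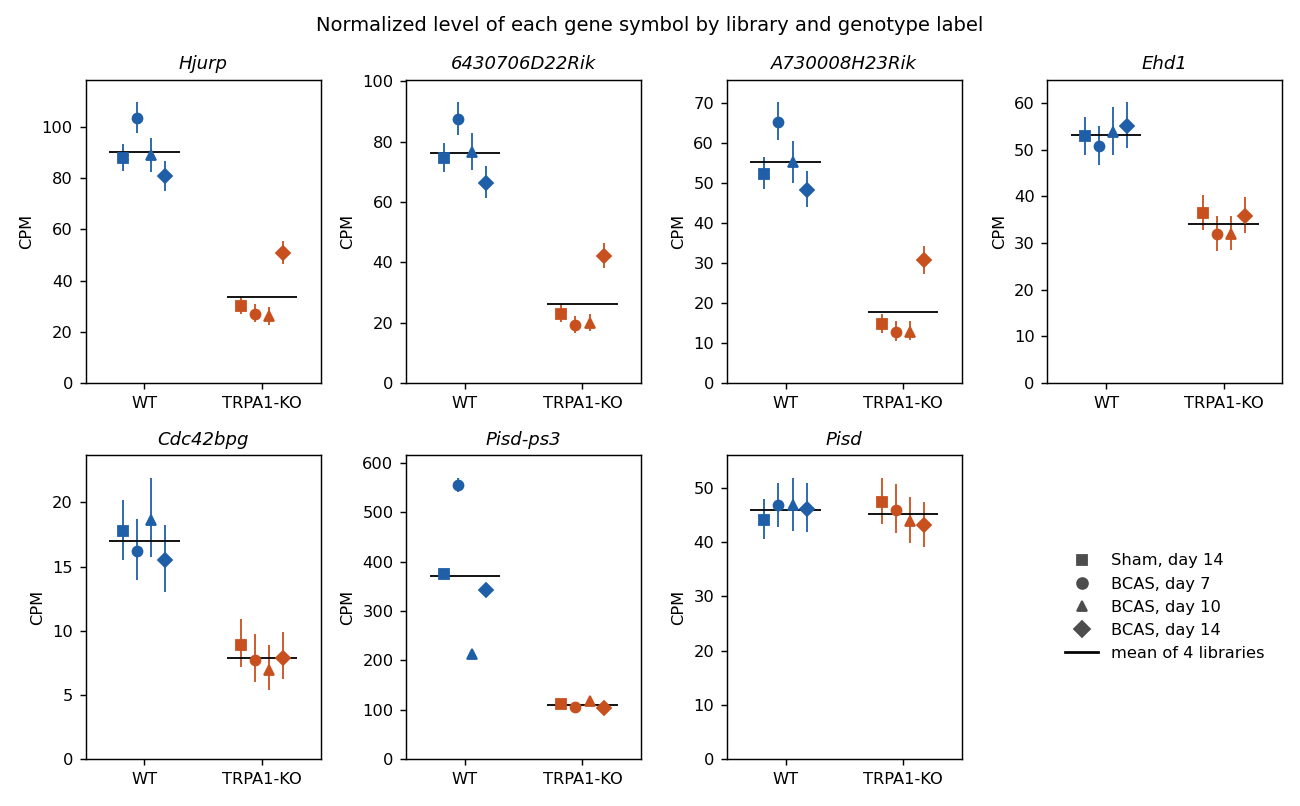
CPM of each symbol (vertical axes, from 0) in the 4 WT and the 4 TRPA1-KO libraries as labelled, with the mean as a line. Bars give the 95% exact binomial interval of the reads, which covers counting error only. *Hjurp* and its synonyms are highest within the TRPA1-KO label in the day 14 BCAS library (50.9 CPM for *Hjurp*), *Pisd-ps3* varies from 213 to 556 CPM within the WT label, and *Pisd* overlaps between labels.

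The 3 rows of this locus were nested in size. In every library, *6430706D22Rik* had fewer reads than *Hjurp*, and *A730008H23Rik* fewer than *6430706D22Rik*. Reads of *6430706D22Rik* were 82.2% to 86.2% of those of *Hjurp* under the WT label, and 76.2%, 70.9%, 76.6%, and 83.0% in the libraries labelled TRPA1-KO. Reads of *A730008H23Rik* were 59.6% to 63.2% of those of *Hjurp* under the WT label, and 48.9%, 47.5%, 49.6%, and 60.3% in the same libraries labelled TRPA1-KO. The day 14 BCAS library labelled TRPA1-KO thus lay within the WT range in both shares, although its *Hjurp* level did not, and the other 3 lay below it. Whether the rows count the same reads is not given in the sources used here. Elsewhere in the table, 58 of the 10744 rows averaging 10 CPM or more held values identical to another row in all 8 libraries.

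**Figure D2:**
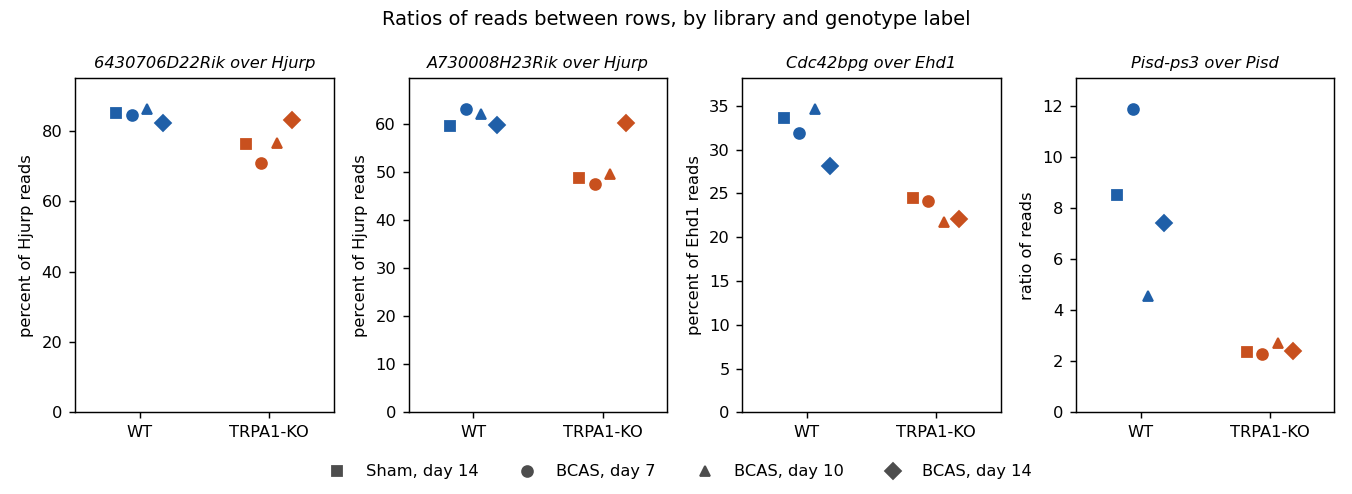
Ratios of reads between rows of the table in each library, with the genotype label on the horizontal axis and percent or ratio on the vertical axes, from 0. The day 14 BCAS library labelled TRPA1-KO (83.0% and 60.3%) sits at the level of the libraries labelled WT for both *Hjurp* synonyms, and *Pisd-ps3* has 4.56 to 11.9 times the reads of *Pisd* under the WT label and 2.30 to 2.70 times under the TRPA1-KO label.

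*Ehd1* (chr19:6276725-6300096, plus strand) and *Cdc42bpg* (chr19:6306456-6325652, plus strand) follow each other on chromosome 19. *Ehd1* had 52.8, 50.8, 53.8, and 55.1 CPM under the WT label, and 36.4, 31.8, 31.9, and 35.8 CPM under the TRPA1-KO label. No TRPA1-KO value reached the lowest WT value. The spread within each label was small, with means of 53.1 ± 1.82 CPM and 34.0 ± 2.46 CPM (SD, n = 4 each), a ratio of 1.56 and a label difference of 0.63 (SE 0.072) on the log2(CPM + 1) scale.

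*Cdc42bpg* had 17.8, 16.2, 18.7, and 15.5 CPM under the WT label, and 8.92, 7.68, 6.94, and 7.91 CPM under the TRPA1-KO label. No library of one label reached the other, and the means of 17.0 ± 1.45 CPM and 7.86 ± 0.817 CPM (SD, n = 4 each) had a ratio of 2.16. The label difference was 1.02 (SE 0.12) on the log2(CPM + 1) scale. The neighbours did not differ by the same factor, since reads of *Cdc42bpg* were 28.1% to 34.7% of those of *Ehd1* under the WT label and 21.7% to 24.5% under the TRPA1-KO label. Across the 8 libraries, their Pearson's r was 0.98, a description of points that share the label difference by which both were chosen.

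*Pisd-ps3* had the most CPM of the chosen symbols in every library, with a wide spread under the WT label and a narrow one under the TRPA1-KO label. It had 375, 556, 213, and 342 CPM under the WT label, and 111, 106, 118, and 104 CPM under the TRPA1-KO label. The libraries labelled WT ranged 2.61-fold among themselves, and those labelled TRPA1-KO 1.14-fold. The means were 372 ± 141 CPM and 110 ± 6.45 CPM (SD, n = 4 each), a ratio of 3.38 and a label difference of 1.67 (SE 0.22) on the log2(CPM + 1) scale.

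The chromosome of *Pisd-ps3* could not be established here. RefSeq lists it as a transcribed pseudogene on sequence without a chromosome. GENCODE M21 ties its transcript to *AC149090.1*, a gene model on an unplaced scaffold (minus strand, bases 52190 to 59690) that is annotated as protein coding. The annotations thus differ on whether it is coding. It is called a pseudogene here after RefSeq, of unknown chromosome, and not an autosomal gene.

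*Pisd*, the gene added for comparison with *Pisd-ps3*, did not separate the labels. It had 44.1, 46.8, 46.8, and 46.2 CPM under the WT label, and 47.5, 46.0, 43.9, and 43.1 CPM under the TRPA1-KO label. The ranges overlapped, and the label difference was 0.027 (SE 0.066).

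The chromosomal pseudogenes *Pisd-ps1* and *Pisd-ps2*, which share the stretches printed above with *Pisd*, did not follow *Pisd-ps3*. *Pisd-ps1* (chr11:3125904-3131004) had 18.8 ± 1.53 CPM under the WT label and 17.2 ± 1.91 CPM under the TRPA1-KO label. *Pisd-ps2* (chr17:3076578-3084183) had 4.10 ± 0.620 and 4.33 ± 0.387 CPM (SD, n = 4 for each value). Neither label difference was called (limma adjusted p = 0.99876 for *Pisd-ps1*). Sharing of reads between *Pisd-ps3* and *Pisd* was not tested.

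Per kilobase of annotated exon, a scale that allows levels of different genes to be set side by side, *Ehd1* had 14.3 CPM under the WT label and 9.18 under the TRPA1-KO label. *Hjurp* had 10.8 and 4.03 CPM per kilobase, *Pisd* 7.99 and 7.84, and *Cdc42bpg* 2.79 and 1.29. With the exons of *AC149090.1* as its length, *Pisd-ps3* had 87.7 and 25.9 CPM per kilobase, the highest of these genes under both labels. On this scale, *Hjurp* lay above *Pisd* under the WT label and below it under the TRPA1-KO label. The lengths are those of GENCODE M21, while the annotation used for counting is not given. *Pisd* also has stretches that occur in other genes, so the order of these genes is uncertain.

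Beside the 238 genes (1.31%) with all 4 values labelled WT above all 4 labelled TRPA1-KO, 208 (1.15%) had all 4 below, over the 18123 genes averaging 0.1 CPM or more. The 6 chosen symbols were picked from the first set, so their own count is fixed by the choice. Ranked by the log2 distance between the lowest WT and the highest TRPA1-KO value, *Pisd-ps3* was 4, *Cdc42bpg* 6, *Hjurp* 7, *A730008H23Rik* 8, *6430706D22Rik* 9, and *Ehd1* 10. The lowest WT value was between 1.39 times (*Ehd1*) and 1.80 times (*Pisd-ps3*) the highest TRPA1-KO value. At the edge of the set, *Esd* was just inside by 0.0051 CPM (48.4 CPM on both sides) and *Tor1aip2* was just outside (66.9 CPM on both sides).

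With limma, 10 genes (0.0552%) were higher under the WT label at an adjusted p under 0.05 and 0 (0%) were lower, among 701 genes with an unadjusted p under 0.05. edgeR called 10 genes higher and DESeq2 called 12 higher and 1 lower. The 10 limma calls were the 6 chosen symbols, *Erdr1*, *Mid1*, and *G530011O06Rik* on chromosome X, and *Kcnc2*. These calls rest on the contrast that chose the genes and are background only.

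**Figure D3:**
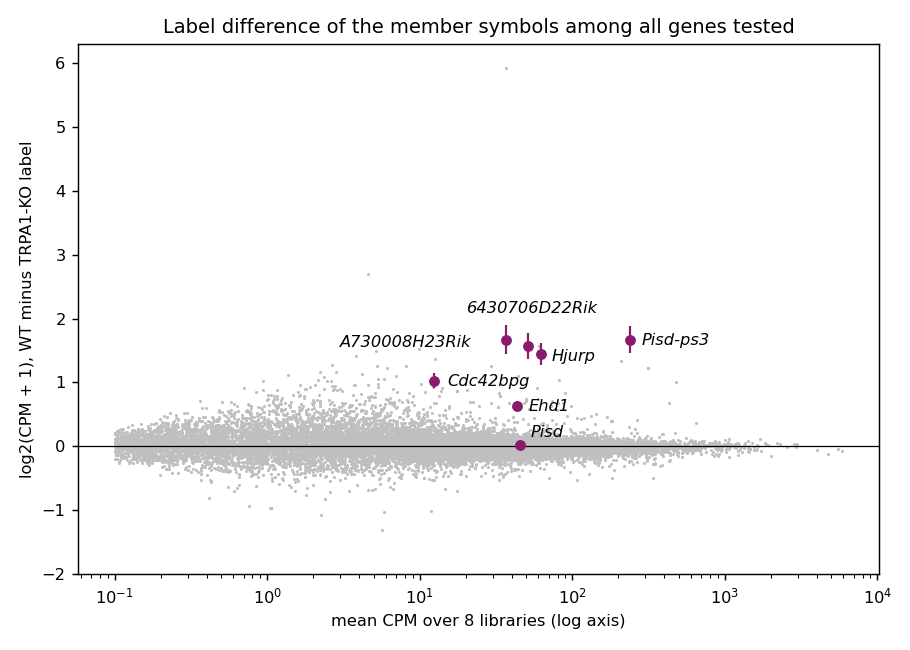
Label difference on the log2(CPM + 1) scale (vertical axis) against mean CPM over the 8 libraries (horizontal log axis) for the 18123 genes tested, with the 7 symbols in colour and standard errors as bars. *Pisd-ps3* (1.67), *A730008H23Rik* (1.67), *6430706D22Rik* (1.58), *Hjurp* (1.45), *Cdc42bpg* (1.02), and *Ehd1* (0.63) lie above the mass of genes, and *Pisd* (0.027) lies in it.

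The operation was not used to choose these genes and could be tested. None of the 7 passed the test for BCAS. For *Hjurp*, the difference between the 6 BCAS and the 2 sham libraries was 0.085 (SE 0.20) on the log2(CPM + 1) scale, with the label in the fit (limma adjusted p = 0.99978). The estimates ranged from -0.15 for *Cdc42bpg* (SE 0.14) to 0.15 for *A730008H23Rik* (SE 0.26), and *Pisd* had -0.011 (SE 0.076). With day 14 libraries only, matched in time to sham, the estimates were 0.31 for *Hjurp*, 0.34 for *6430706D22Rik*, and 0.45 for *A730008H23Rik* (limma adjusted p = 0.94 for each). With these errors, changes of moderate size were not detectable for *Hjurp*, its synonyms, and *Pisd-ps3*. Among all genes, limma called 0 (0%) for the operation, with 642 at an unadjusted p under 0.05, edgeR called 0, and DESeq2 called 11.

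The sham library lay within the range of the BCAS libraries of its label for *Hjurp*, both synonyms, and *Pisd-ps3*, under either label. *Ehd1* and *Cdc42bpg* lay within that range under the WT label, and above all 3 BCAS libraries under the TRPA1-KO label (36.4 against at most 35.8 CPM and 8.92 against at most 7.91 CPM). *Pisd* was below all 3 BCAS libraries in the sham library labelled WT and above all 3 in that labelled TRPA1-KO. The test of that difference gave an interaction of 0.17 (SE 0.15, limma adjusted p = 0.99983). The other interactions lay between -0.12 (*A730008H23Rik*) and 0.14 (*Ehd1*), each with limma adjusted p = 0.99983. Over all genes, 0 (0%) interactions were called by limma, edgeR, or DESeq2, and 271 had a limma p under 0.05.

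Within the 6 BCAS libraries, no slope of the 7 passed the test. The slope was 0.041 per day for *Hjurp* (SE 0.037, limma adjusted p = 0.95), 0.020 for *Ehd1* (SE 0.014, limma adjusted p = 0.94), and -0.0022 for *Cdc42bpg* (SE 0.027, limma adjusted p = 0.9986). *Pisd-ps3* had -0.045 (SE 0.046, limma adjusted p = 0.96). limma called 0 slopes (0%) among all genes, with 893 at an unadjusted p under 0.05, while edgeR called 6 and DESeq2 5, none of them among the 7. The slopes of *Hjurp* and its synonyms rested on the day 14 library labelled TRPA1-KO, and without it that of *Hjurp* was -0.045.

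**Figure D4:**
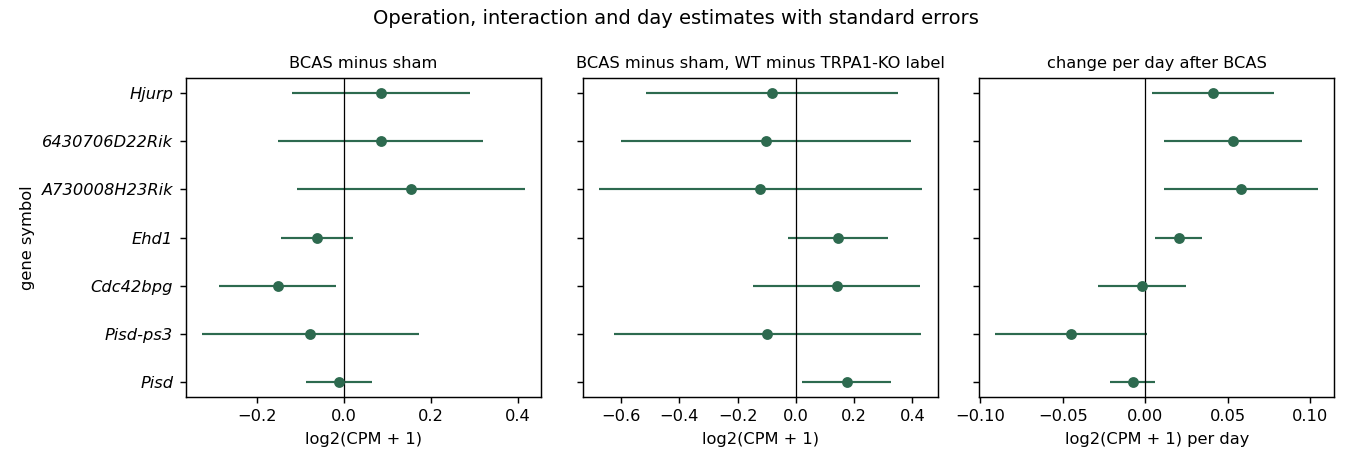
Estimates with standard errors on the log2(CPM + 1) scale for the 7 symbols. The panels give BCAS minus sham, the difference of that change between the labels, and the change per day after BCAS, and the estimates for *Hjurp* (0.085, -0.082, and 0.041) are near or below their standard errors (0.20, 0.43, and 0.037).

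At matched operation and day, the WT to TRPA1-KO ratio of *Hjurp* was 2.91 for sham, and 3.81, 3.41, and 1.59 on days 7, 10, and 14 after BCAS. *Ehd1* had ratios of 1.45, 1.59, 1.69, and 1.54 in that order, and *Cdc42bpg* had 1.99, 2.11, 2.69, and 1.96. *Pisd-ps3* had 3.37, 5.27, 1.80, and 3.29. *Pisd* stayed between 0.930 and 1.07. Each ratio compares 1 library with 1 library and has no replicate check.

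Of the summed cell type markers, only those of endothelium did not overlap between the labels. The gap was narrow, with 143.2 CPM as the lowest WT sum and 139.7 CPM as the highest TRPA1-KO sum. Among all single genes tested, 1.31% had all values labelled WT above and 1.15% all below. The summed level of 4 endothelial markers was 143 to 175 CPM under the WT label and 130 to 140 CPM under the TRPA1-KO label, all 4 markers being above 0 in every library, and its part in the label differences was not tested. The astrocyte sum was 769 to 2284 CPM (WT) and 756 to 1173 CPM (TRPA1-KO), and the microglia sum 180 to 416 and 173 to 242 CPM. In the day 14 BCAS library labelled TRPA1-KO, where *Hjurp* was high for its label, the summed astrocyte (1173 CPM), microglia (242 CPM), and endothelial (140 CPM) markers were the highest of that label, 4 markers each and none at 0. The cortical neuron sum (1431 CPM) was the lowest of that label there. The part of these markers was not tested either. The summed markers of dividing cells, in which *Hjurp* is known to act, were 11.2 to 55.8 CPM under the WT label and 10.2 to 21.4 CPM under the TRPA1-KO label, with 13.1 CPM in that same library, and so overlapped between labels.

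No gene beside these loci passed the test for the label. Within 250 kb of *Hjurp*, 11 genes were tested, 0 were called, and 0 had an unadjusted p under 0.05, against 0.0552% called and 3.87% under 0.05 over all genes. Their median label difference was 0.54, and 8 of the 11 were *Ugt1a* genes, which encode UDP-glucuronosyltransferases from shared 3′ exons. The median is thus that of the *Ugt1a* genes. The tested neighbours outside this family, *Dnajb3*, *Mroh2a*, and *Glrp1*, had label differences of 0.036, -0.021, and 0.070. *Ugt1a2*, *Ugt1a9*, and *Ugt1a10* had identical values in every library (3.61 ± 2.75 CPM under the WT label and 1.84 ± 0.341 CPM under the TRPA1-KO label), so they are not separate measurements. Their WT values ran from 1.54 to 7.65 CPM and their TRPA1-KO values from 1.34 to 2.08 CPM, so the labels overlapped. These genes were named after their values were seen. *Mroh2a*, the neighbour on the 3′ side of *Hjurp*, had 3.82 ± 0.638 and 3.89 ± 0.645 CPM (SD, n = 4 each).

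Within 250 kb of *Ehd1* and *Cdc42bpg*, 25 other genes were tested, with 0 called and a median label difference of 0.0072. *Atg2a*, which lies 14.4 kb from *Ehd1*, had 68.2 CPM under the WT label and 68.1 under the TRPA1-KO label, and *Men1*, 9.33 kb from *Cdc42bpg*, had 51.5 and 51.2 CPM. Both were named after their values were seen. *Snx15*, a sorting nexin of endosomes 148 kb away, was the only one whose labels did not overlap and the only one with an unadjusted p under 0.05. It was lower under the WT label (31.9 against 36.1 CPM, label difference -0.17, limma adjusted p = 0.99876). Of all genes tested, 1.15% lay below in the same way and 3.87% had an unadjusted p under 0.05. Within 250 kb of *Pisd*, 5 genes were tested and 0 were called or had a p under 0.05, with a median of 0.081. Beside *Trpa1*, *Msc* was the only gene tested (label difference 0.14, limma adjusted p = 0.99876).

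**Figure D5:**
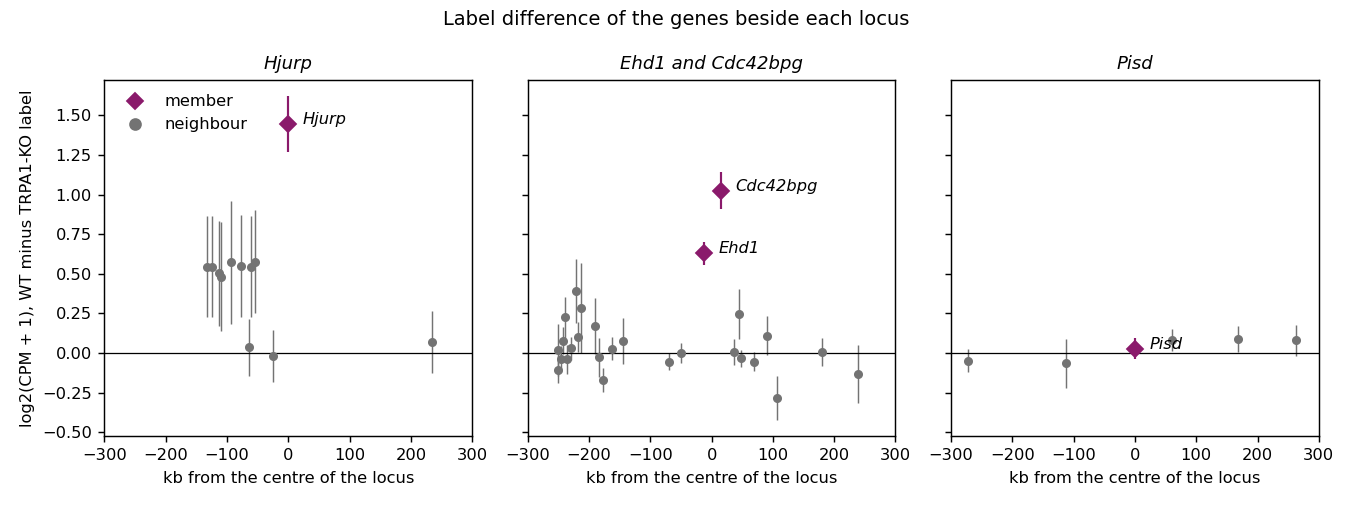
Label difference on the log2(CPM + 1) scale with its standard error (vertical axis) for the tested genes within 250 kb of *Hjurp*, of *Ehd1* and *Cdc42bpg*, and of *Pisd*, by distance in kb of their midpoints from the centre of the locus (horizontal axis). *Hjurp* (1.45), *Cdc42bpg* (1.02), and *Ehd1* (0.63) stand above their neighbours, and the points near 0.54 beside *Hjurp* are *Ugt1a* genes that share reads.

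No partner of HJURP passed the test in any comparison, and for operation, interaction, and day no gene tested did. Of 24 genes of CENP-A loading and the centromere, all were tested and 0 were called for the label, operation, interaction, or day. The limma p was under 0.05 for 0, 1, 0, and 1 of them. Over the 18123 genes tested, limma called 10 (0.0552%) for the label and 0 (0%) for each other comparison. Its p was under 0.05 for 701, 642, 271, and 893 of them, in the same order. With so few calls, 0 of 24 says little about these partners. The median label difference was 0.076, beside 0.0021 over all genes. *Cenpa*, the histone that HJURP carries, had 3.46 ± 1.79 CPM under the WT label and 2.79 ± 0.383 CPM under the TRPA1-KO label. Of the subunits that recruit HJURP, *Oip5* had 1.07 ± 0.295 and 0.652 ± 0.0998 CPM (label difference 0.32, limma adjusted p = 0.99876) and *Mis18a* had 4.27 ± 1.13 and 3.95 ± 0.774 CPM, with a day slope of -0.086 (limma adjusted p = 0.94). The centromere protein gene *Cenpw* pointed the other way, with 1.83 ± 0.473 and 2.63 ± 0.248 CPM (label difference -0.37, limma adjusted p = 0.99876). *Cenpm* had the smallest p for the operation of this list (0.46, SE 0.20, limma adjusted p = 0.99978).

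Of 16 genes of the EHD family and endocytic recycling, 0 were called in any of the 4 comparisons. The limma p was under 0.05 for 1 by label, 1 by operation, and 0 by interaction or day. Over all 18123 genes, limma called 0.0552% by label and 0% otherwise. There, p was under 0.05 for 701 by label, 642 by operation, 271 by interaction, and 893 by day. The median label difference was -0.012. The paralogues *Ehd2* (8.48 ± 2.14 and 6.70 ± 1.36 CPM), *Ehd3* (86.4 ± 4.66 and 81.1 ± 5.05 CPM), and *Ehd4* (14.6 ± 6.24 and 13.4 ± 0.618 CPM) overlapped between the labels. *Ehd2* had the largest label difference of the 16 genes, higher under the WT label (0.29, SE 0.19, limma adjusted p = 0.99876). *Tfrc*, the transferrin receptor and a cargo of this pathway, was the 1 gene of the 16 whose labels did not overlap. It had 153 ± 8.58 against 132 ± 4.63 CPM (label difference 0.20, SE 0.060, limma adjusted p = 0.99876). Among all genes tested, 1.31% had all values labelled WT above and 1.15% all below, so 1 such gene is no sign of a shift in the list.

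Of 18 genes from CDC42 and the MRCK kinases to myosin, 0 were called in any comparison. The limma p was under 0.05 for 0 by label, 1 by operation, 1 by interaction, and 2 by day. Among all 18123 genes, 0.0552% were called by label and 0% otherwise, and the p was under 0.05 for 701, 642, 271, and 893. The median label difference was -0.035. The related kinases *Cdc42bpa* (360 ± 27.7 and 363 ± 26.0 CPM) and *Cdc42bpb* (215 ± 12.5 and 212 ± 5.19 CPM) overlapped between the labels. *Dmpk*, another kinase of this family, had 27.1 ± 3.96 and 31.4 ± 5.33 CPM (label difference -0.20, limma adjusted p = 0.99876) and an operation estimate of -0.31 (limma adjusted p = 0.99978).

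A list of 16 held genes of phosphatidylserine and phosphatidylethanolamine synthesis and transport and the pseudogenes *Pisd-ps1* and *Pisd-ps2*. Of these, 0 were called and 0 had a limma p under 0.05 in any comparison, and the median label difference was -0.043. Calls over all 18123 genes were 0.0552% by label and 0% otherwise. The p was under 0.05 for 701 by label, 642 by operation, 271 by interaction, and 893 by day. *Ptdss1*, which makes phosphatidylserine, the substrate of PISD, had 63.6 ± 5.36 CPM under the WT label and 64.0 ± 1.42 CPM under the TRPA1-KO label. *Pcyt2*, the enzyme of the other route to phosphatidylethanolamine, had 86.8 ± 8.11 and 89.0 ± 3.59 CPM. The smallest label p belonged to *Triap1*, which works with the PRELI proteins that move lipids between the mitochondrial membranes (9.64 ± 0.786 and 11.4 ± 0.757 CPM, limma adjusted p = 0.99876).

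The genes whose log2(CPM + 1) ran most like that of each member over the 8 libraries were sought among the 15152 genes averaging 1 CPM or more. For *Cdc42bpg* they were *Mid1* (Pearson's r 0.98), *G530011O06Rik* (0.98), and *Erdr1* (0.98), and for *Ehd1* they were *Erdr1* (0.97), *Mid1* (0.96), and *G530011O06Rik* (0.95). These 3 lie together on chromosome X, and their levels separated the labels too, as for *Erdr1*, which had 73.2 ± 25.5 CPM (WT) and 0.184 ± 0.134 CPM (TRPA1-KO). For *Hjurp* they were *G530011O06Rik* (0.96), *Celrr* (0.95), and *Gtf3c5* (0.94). For *Pisd-ps3* they were *Ephb4* (0.98), *Rfc3* (0.97), and *Tafa2* (0.97). For *Pisd* they were *Orc2* (0.97), *Susd1* (0.96), and *Cep162* (0.95). The points of each correlation share the genotype labels and libraries, so these values are a description.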

How the data were processed

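Polyadenylated RNA was sequenced from 8 libraries. The authors used HISAT (version 2.1.0) for mapping to GRCm38, subread (version 2.0.1) for counting per gene, and edgeR (version 3.34.1) for scaling, and the submitters' processing notes name mm10. The annotation and strand setting are not given in the sources used here. The deposited signal is counts divided by effective library size, as CPM. All values (100%) were whole multiples of 1 read (tolerance 0.01), so reads were recovered, and the floor of 3 reads was 0.235 to 0.378 CPM.

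The tests used limma (version 3.58.1, R version 4.3.3) on log2(CPM + 1) (two-sided, the variance trend fitted to mean level), with Benjamini-Hochberg adjustment over the 18123 genes averaging 0.1 CPM or more. The label and operation were terms of 1 fit over the 8 libraries, the interaction was added to it, and the day slope used the 6 BCAS libraries. Libraries of different days served as replicates, so the spread holds days and mice. edgeR version 4.0.16 (quasi-likelihood) and DESeq2 version 1.42.0 were run on the recovered reads. Scripts were checked on simulated counts. Also tried were a pseudocount of 0.1, no filter, a filter at 1 CPM, equal library medians, each library left out, pairs of the same operation and day as a block, day 14 only, and the BCAS libraries only. Positions are from GENCODE M21 and RefSeq (GRCm38.p6). Named genes are the members, *Trpa1*, neighbours that passed a threshold or did not overlap, up to 2 genes of each pathway list per comparison with the smallest p, and the 3 most similar genes per member. Further genes of the lists were named for their role. The members and lists were chosen with earlier results of these data known.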

Additional observations from a re-analysis of the deposited data

Results flagged for a closer look

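In the group of 4 libraries labelled TRPA1-KO, the BCAS library of day 14 lay far from the other 3 for the rows of the *Hjurp* locus. It had 50.9 CPM of *Hjurp*, 42.2 CPM of *6430706D22Rik*, and 30.7 CPM of *A730008H23Rik*, and in each its gap to the next library, as a share of the whole range, was past Dixon's limit for 4 values. These are rows of 1 locus and count as 1 observation, and such a limit marks about 1 group in 20 by chance. *Pisd* moved in opposite directions after BCAS under the 2 labels, with all 3 BCAS libraries above the sham library labelled WT and all 3 below that labelled TRPA1-KO, an interaction of 0.17 (SE 0.15) that did not pass the test (limma adjusted p = 0.99983).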

How the results depend on the processing

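The label differences of the 6 chosen symbols could hardly turn sign under these alternatives, since the symbols were chosen for values that do not overlap, so their direction says nothing of stability. No operation, interaction, or slope of the 7 symbols passed the threshold under any. The operation, interaction, and slope of *Hjurp* and its synonyms turned sign without the day 14 BCAS library labelled TRPA1-KO. With a library left out, the operation change ranged from -0.060 to 0.16 for *Hjurp*, -0.036 to 0.24 for *A730008H23Rik*, and -0.086 to 0.17 for *6430706D22Rik*, the interaction from -0.25 to 0.22, -0.32 to 0.27, and -0.29 to 0.25, and the slope from -0.045 to 0.10, -0.051 to 0.14, and -0.045 to 0.13, in that order. The operation change ranged from -0.13 to 0.010 for *Ehd1*, turning sign without the TRPA1-KO sham library, and from -0.098 to 0.076 for *Pisd*, turning without that library and without TRPA1-KO BCAS day 14 (0.0036). For *Pisd-ps3*, the operation change ranged from -0.24 to 0.087 and the interaction from -0.44 to 0.25, both turning without WT day 10, and the slope from -0.075 to 0.038, turning without WT day 7. The slope of *Cdc42bpg* ranged from -0.017 to 0.016, turning without WT day 14 BCAS or TRPA1-KO day 7 (0.0013). With day 14 only, the operation change was 0.31 for *Hjurp*, 0.34 for *6430706D22Rik*, 0.45 for *A730008H23Rik*, -0.11 for *Pisd-ps3*, -0.036 for *Pisd*, and 0.017 for *Ehd1*. By other settings, the interaction of *Pisd-ps3* was 0.018 with edgeR and 0.014 with DESeq2, and the slope of *Cdc42bpg* was 0.0041 with equal library medians. The causes were not tested. The 10 genes called by label became 5 without a filter, 3 in the BCAS libraries only, and between 3 and 16 with a library left out (3 without either sham library or TRPA1-KO day 10, 4 without WT day 10, 16 without WT day 7). The 0 operation calls became 11 with DESeq2. The 0 slopes became 6 with edgeR and 5 with DESeq2, and between 0 and 33 with a library left out (33 without TRPA1-KO BCAS day 14). The 238 separated genes became 168 with a gap of at least 0.1 CPM.

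The libraries of the same operation and day came from different mice. Their deviations from the label means correlated at -0.14, 0.016, and -0.22 on days 7, 10, and 14 after BCAS (10692 genes). Whether such libraries also shared a batch is not given in the sources used here and was not tested. With these pairs as a replicate block, 6 genes were called by label and 1 by operation.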
